A study of Mus musculus with 11 samples.

Results

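The 30 genes described here encode the contractile apparatus of smooth muscle, the cytoskeleton that anchors it and proteins that serve or control it. They were taken by symbol from a list of 30 smooth muscle genes, and all 30 were found among the 24250 gene symbols measured. RNA was sequenced from mouse small intestine in 11 libraries. The FSP group, 4 libraries, received the preparation named in the labels as 5 Substances Powder with Poria. The HFD group had 4 libraries and the ND group 3, read here as high-fat diet and normal diet. No diet is named for FSP in the labels, and obese mice are spoken of in the title. Genotype, strain, age, sex, dose, duration and the stretch of gut taken were not given in the labels used here. The labels call the libraries separate samples but do not tie them to separate animals, so a p-value here sets a difference against a spread between samples that may be technical.

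Smooth muscle of the gut wall contracts when a calcium signal activates myosin light-chain kinase, which phosphorylates the regulatory light chain and lets myosin pull on actin filaments. The filaments end in dense bodies and membrane plaques, where alpha-actinin, filamin, vinculin and LIM-domain proteins hold them, and desmin filaments link these anchors through the cell. Many genes of this apparatus carry CArG boxes, the DNA element bound by serum response factor (SRF), whose coactivator myocardin drives smooth muscle transcription.

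Expression was deposited as FPKM, fragments scaled to gene length and library total, so levels of different genes can be set side by side per length. A depth of 3.18e+07 (HFD 1) to 3.84e+07 (FSP 4) fragments was recovered from the low values of 640 single-exon genes, so a gene of 1 kb at 1 FPKM rested on about 32 fragments in the shallowest library. Of the 30 genes, 27 averaged at least 1 FPKM over the 11 libraries and entered the test among 10296 genes. Flnc, Kcnmb1 and Myocd did not. The share of all FPKM taken by the 13 mitochondrially encoded genes was 12.9% to 21.9% in FSP, 18.1% to 40.4% in HFD and 16.3% to 22.2% in ND libraries, and HFD 1 held the highest share.

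Most of these genes varied together from library to library, by more within a group than between groups. The 2 libraries with the lowest levels were FSP 2 and HFD 1, which both lay below all 9 other libraries for 28 of the 30 genes. Myl6 and Ldb3 were the exceptions. FSP 1 held the highest value for 19 of the 30 genes and ND 1 for 6. Leaving out the very abundant Myl6, the genes summed to 1565, 301, 691 and 1093 FPKM in FSP 1 to 4, to 373, 1259, 895 and 747 FPKM in HFD 1 to 4, and to 1288, 1199 and 934 FPKM in ND 1 to 3. The median over the genes of the ratio of the other FSP libraries to FSP 2 was 4.81, and that of the other HFD libraries to HFD 1 was 2.87. The highest library exceeded the lowest by a median of 6.92-fold over the 30 genes, and by 5-fold or more for 24 of them. Over all 10296 tested genes that ratio had a median of 2.13, and 11.9% of genes reached 5-fold. In whole tissue, fewer muscle cells and less of these RNAs per cell cannot be told apart.

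**Figure D1:**
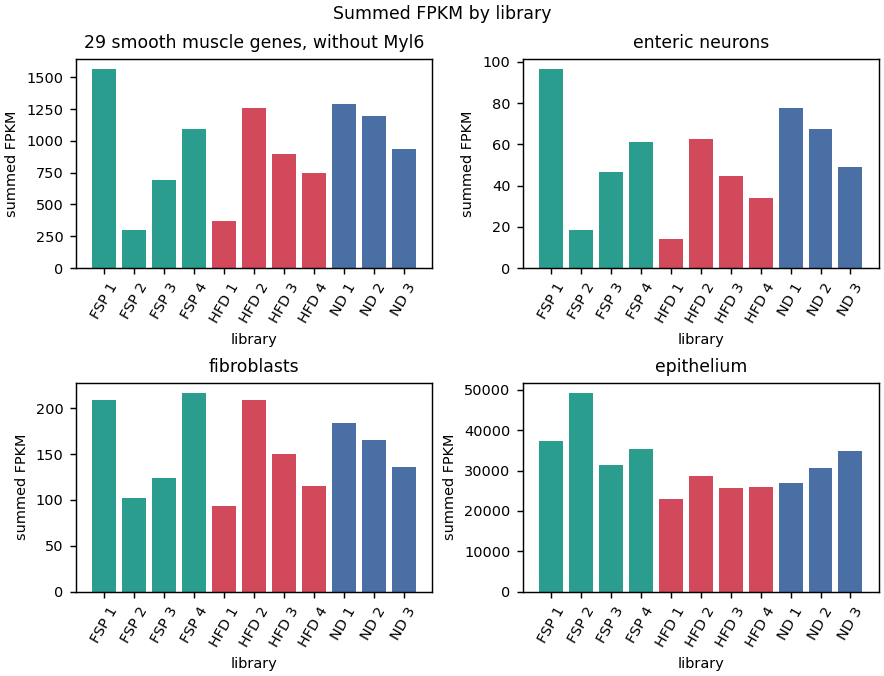
Summed FPKM of the smooth muscle genes without Myl6 in each of the 11 libraries, with marker lists of other cell types for comparison. FSP 2 at 301 FPKM and HFD 1 at 373 FPKM lie below the other 9 libraries, the lowest of which is FSP 3 at 691 FPKM.

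By summed FPKM, markers of enteric neurons, of pericytes and of fibroblasts had the same 2 libraries lowest. Those of interstitial cells of Cajal, enteric glia and mesothelium did not. Mean log2(FPKM + 1) gave another division. By it, glia (FSP 2 0.931, HFD 1 1.02) and mesothelium (HFD 1 1.29, FSP 2 1.43) had these 2 libraries lowest, as neurons and pericytes did. Fibroblasts did not, with HFD 1 (2.05) and FSP 3 (2.08) lowest and FSP 2 at 2.22, and interstitial cells of Cajal again did not. The 18 enteric neuron markers summed to 96.6, 18.7, 46.7 and 61.0 FPKM in FSP 1 to 4, to 14.0, 62.7, 44.5 and 34.1 FPKM in HFD 1 to 4, and to 77.8, 67.5 and 48.9 FPKM in ND 1 to 3. The 13 markers of pericytes and vascular smooth muscle ran from 23.9 FPKM (FSP 2) to 89.4 FPKM (FSP 1), and the 15 fibroblast markers from 93.8 FPKM (HFD 1) to 217 FPKM (FSP 4). In both of these sums FSP 2 and HFD 1 were again the lowest libraries. The 8 markers of interstitial cells of Cajal summed to 66.2, 54.1, 37.6 and 70.9 FPKM in FSP 1 to 4, to 18.4, 42.9, 33.4 and 31.1 FPKM in HFD 1 to 4, and to 81.5, 71.7 and 58.3 FPKM in ND 1 to 3, so HFD 1 was lowest and FSP 2 was not low. HFD 1 was also lowest for the 8 markers of enteric glia (38.1 FPKM) and the 9 of mesothelium (301 FPKM), where FSP 2 held 51.0 and 673 FPKM, above other libraries. Of the Cajal, glial and mesothelial markers, 4, 6 and 5 averaged under 1 FPKM. These sums therefore rest mainly on the few more abundant genes of each list, which other cells may also make. Epithelial markers did not follow them, since the 15 genes summed to 49306 FPKM in FSP 2, the highest library, and to 23024 FPKM in HFD 1, the lowest. Of 20 striated muscle markers, 16 averaged under 1 FPKM, and Actc1, Myh6 and Casq1 were listed at 0 in at least 1 library. The part of these cell types in the pattern was not tested.

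Among the 13 genes of the contractile filament and its regulators are the actins and myosin themselves. Acta2, smooth muscle alpha-actin (chromosome 19, 34241090 to 34255590, minus strand, GRCm38), had 152, 20.8, 73.7 and 116 FPKM in FSP 1 to 4, 32.8, 131, 97.7 and 78.5 FPKM in HFD 1 to 4, and 132, 125 and 93.6 FPKM in ND 1 to 3. Actg2, the gamma-actin of gut smooth muscle, had 239, 25.6, 65.2 and 114 FPKM in FSP, 36.4, 146, 97.5 and 77.0 FPKM in HFD, and 166, 159 and 126 FPKM in ND libraries. Myh11, the smooth muscle myosin heavy chain, had 66.4, 6.42, 29.9 and 48.4 FPKM in FSP, 10.96, 65.7, 43.5 and 34.8 FPKM in HFD, and 60.3, 50.9 and 30.5 FPKM in ND libraries. For all 3 genes the ranges of the groups overlapped, and the FSP and HFD ranges were wider than that of ND. The longest open reading frames of Acta2 and Actg2 were 84.2% identical, with a longest identical run of 29 bases. How the counting assigned fragments to each was not checked.

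The light chains differed in how far they moved. Myl9, the regulatory light chain that the kinase phosphorylates, had 256, 39.7, 112 and 194 FPKM in FSP, 57.5, 256, 163 and 128 FPKM in HFD, and 229, 209.6 and 172 FPKM in ND libraries. Myl6, the essential light chain, which non-muscle cells also use, had 1103, 1067, 871 and 888 FPKM in FSP, 719, 951, 792 and 808 FPKM in HFD, and 927, 978 and 962 FPKM in ND libraries. Myl6 was the most abundant of the 30 genes and the steadiest, with 1.53-fold between its highest and lowest library, and FSP 2 was not low for it. Mylk, the light-chain kinase itself, had 58.3, 20.8, 39.1 and 49.3 FPKM in FSP, 26.6, 61.9, 52.6 and 45.4 FPKM in HFD, and 50.4, 44.4 and 36.4 FPKM in ND libraries, a 2.98-fold range.

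The actin-binding regulators followed Acta2. Tagln, transgelin, averaged 103 ± 67.6 FPKM in FSP (SD, n = 4), 76.9 ± 35.5 FPKM in HFD (SD, n = 4) and 126 ± 23.8 FPKM in ND libraries (SD, n = 3). Cnn1, calponin, which restrains the myosin ATPase, averaged 31.4 ± 23.2, 25.4 ± 12.5 and 37.1 ± 6.15 FPKM in FSP, HFD and ND libraries (SD, n = 4, 4 and 3). Tpm2, a tropomyosin, averaged 40.6 ± 29.3, 42.4 ± 22.4 and 52.1 ± 7.84 FPKM in the same groups, whereas Tpm1, a tropomyosin of many cell types, spanned only 65.6 to 113 FPKM over all 11 libraries. Cald1 (caldesmon), Smtn (smoothelin) and Lmod1 (leiomodin, which nucleates actin) ran at lower levels, from 1.83 to 15.4, 1.70 to 9.40 and 0.875 to 5.79 FPKM. Without strand information, Tagln may share fragments with genes annotated on the opposite strand, which overlap 62.4% of its exon bases in GENCODE M21.

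**Figure D2:**
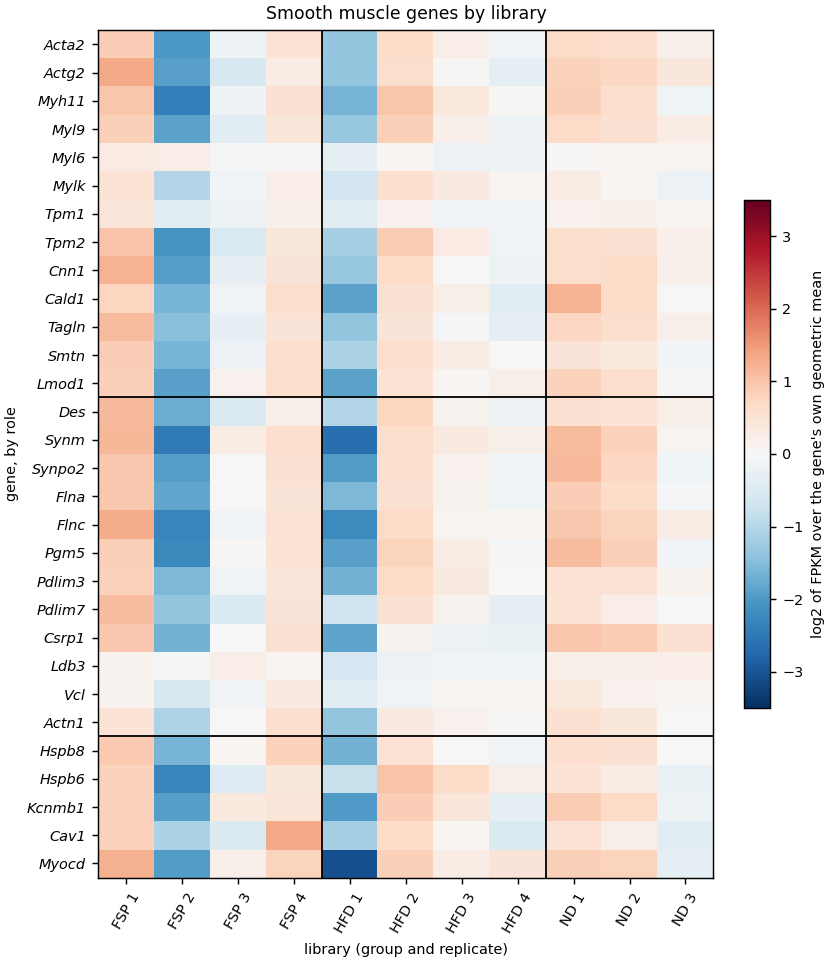
Log2 of each gene's FPKM over its own geometric mean, for the 30 genes (rows, by role) in the 11 libraries (columns). The columns of FSP 2 and HFD 1 are low in nearly every row, and the rows of Myl6, Tpm1, Ldb3 and Vcl, each with under 2-fold between its highest and lowest library, are the flattest.

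Among the 12 genes of the cytoskeleton and dense body, Des (desmin) had 102, 14.0, 32.4 and 53.1 FPKM in FSP, 22.7, 78.3, 50.3 and 41.0 FPKM in HFD, and 67.6, 65.0 and 53.1 FPKM in ND libraries. Synm (synemin, a partner of desmin) spanned 13.9-fold over the libraries, and Flnc (a filamin of muscle) and Pgm5 (aciculin, of adhesion plaques) 11.9-fold and 10.4-fold. Flna (filamin A), Synpo2 (synaptopodin-2), Pdlim3 and Pdlim7 (PDZ-LIM proteins that bind alpha-actinin) and Actn1 (alpha-actinin-1) ranged between 3.87-fold (Actn1) and 8.46-fold (Synpo2). Vcl (vinculin, which couples adhesions to actin) stayed between 7.46 and 14.2 FPKM. About 25.5% of the exon bases of Vcl overlap Ap3m1 in GENCODE M21, and how such fragments were counted is unknown here.

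The remaining 5 genes are chaperones, membrane proteins and a transcription cofactor. Cav1, caveolin-1, which shapes membrane pits in muscle, endothelium and fat cells alike, had 17.9, 4.82, 7.44 and 26.1 FPKM in FSP, 4.60, 16.1, 11.04 and 7.28 FPKM in HFD, and 14.6, 11.8 and 8.04 FPKM in ND libraries. Myocd, myocardin, had 0.596, 0.0651, 0.286 and 0.432 FPKM in FSP, 0.0301, 0.447, 0.304 and 0.347 FPKM in HFD, and 0.449, 0.432 and 0.203 FPKM in ND libraries. Its 19.8-fold range was the widest of the 30 genes, and its HFD 1 value rested on about 6 fragments at its GENCODE exon length. Hspb8, a small heat shock protein, ranged 5.89-fold, and Kcnmb1, the beta subunit of the calcium-activated potassium channel of smooth muscle, 7.37-fold.

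Since SRF acts through CArG boxes, the RefSeq promoter table (GRCm38.p6), which holds windows of 250 bases before to 50 after annotated starts, was searched for that box. The table gave windows for 26 of the 30 genes. Actg2, Myh11, Tagln and Myocd had none, so their promoters were not searched. An exact box lay in a window of 4 of the 26 genes (15.4%), namely Myl9, Myl6, Vcl and Ldb3, against 1.81% of the 27025 genes in the table. With 1 substitution allowed, the counts were 13 of 26 genes, against 23.8% of all genes. The box reads alike on both strands, so a search of either strand covers both. The 250 upstream bases of the 4 genes are shown because 3 of them, Myl6, Vcl and Ldb3, are among the 4 with the smallest range over the libraries, and those of Acta2 because it stands for the genes that varied widely. Capitals mark the exact box or, in Acta2, the boxes with 1 substitution. The stretches lie at chr2:156775214-156775463 on the plus strand (Myl9), chr10:128493010-128493259 on the minus strand (Myl6), chr14:20929148-20929397 on the plus strand (Vcl), chr14:34588682-34588931 on the minus strand (Ldb3) and chr19:34255374-34255623 on the minus strand (Acta2), each written 5′ to 3′.
Myl9: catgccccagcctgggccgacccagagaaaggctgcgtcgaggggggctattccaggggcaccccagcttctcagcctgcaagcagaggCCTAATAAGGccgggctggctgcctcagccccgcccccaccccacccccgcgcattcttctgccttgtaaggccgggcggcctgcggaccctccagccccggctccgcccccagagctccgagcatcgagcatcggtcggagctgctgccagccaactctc
Myl6: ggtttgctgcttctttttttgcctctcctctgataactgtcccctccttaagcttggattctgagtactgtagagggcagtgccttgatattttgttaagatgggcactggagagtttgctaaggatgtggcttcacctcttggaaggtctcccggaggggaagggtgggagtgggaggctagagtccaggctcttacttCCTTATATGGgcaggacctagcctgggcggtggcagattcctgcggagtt
Vcl: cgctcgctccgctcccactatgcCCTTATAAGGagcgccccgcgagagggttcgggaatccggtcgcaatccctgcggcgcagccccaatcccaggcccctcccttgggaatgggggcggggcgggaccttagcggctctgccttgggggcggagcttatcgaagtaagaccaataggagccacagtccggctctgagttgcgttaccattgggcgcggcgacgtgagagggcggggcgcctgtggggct
Ldb3: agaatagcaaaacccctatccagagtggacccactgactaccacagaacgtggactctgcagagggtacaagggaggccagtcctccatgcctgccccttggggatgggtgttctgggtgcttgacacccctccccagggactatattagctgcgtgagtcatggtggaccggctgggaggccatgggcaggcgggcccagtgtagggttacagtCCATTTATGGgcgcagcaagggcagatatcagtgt
Acta2: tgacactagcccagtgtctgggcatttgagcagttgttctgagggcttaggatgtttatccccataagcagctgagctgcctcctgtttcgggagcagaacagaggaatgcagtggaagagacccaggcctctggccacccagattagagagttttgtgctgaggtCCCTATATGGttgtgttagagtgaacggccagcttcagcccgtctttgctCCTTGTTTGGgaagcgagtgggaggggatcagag
The exact box began 161 bases before the start in Myl9, 50 in Myl6, 227 in Vcl and 35 in Ldb3, and the boxes with 1 substitution in Acta2 began at 84 and 34 bases. The Myl6 window lies within the gene as GENCODE M21 draws it. Myl6 and Ldb3 each had another window with its own annotated start. That of Myl6 held no box, even with 1 substitution, and the same Ldb3 box began 109 bases before the other Ldb3 start. Most of the Acta2 stretch, with both of its boxes, also lies within its gene there, which begins at 34255590 on the minus strand. A match of letters is a description and not a site of binding.

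Between HFD and ND libraries, 1 of the 27 tested genes passed the threshold, Ldb3, which fell. By limma with Benjamini-Hochberg adjustment and a threshold of 0.05, 20.5% of all tested genes were called in that comparison, and 15.1% were called lower in HFD. Ldb3 is a PDZ-LIM protein known from the Z-discs of striated muscle (chromosome 14, 34526603 to 34588682, minus strand). An exact box lay 35 bases before 1 of its annotated starts. Ldb3 had 14.8, 13.2, 15.9 and 14.3 FPKM in FSP, 8.95, 11.7, 12.6 and 12.2 FPKM in HFD, and 15.6, 15.5 and 15.9 FPKM in ND libraries. All 4 HFD libraries lay below all 3 ND and all 4 FSP libraries. Ldb3 followed the other genes only loosely over the libraries. Its Pearson r to the mean log2(FPKM + 1) of the 27 tested genes was 0.54, against 0.98 for Myh11, and only Myl6 (0.30) had less. Which cells its RNA came from was not tested. On the log2(FPKM + 1) scale used throughout, HFD differed from ND by a log2 change of -0.44 (SE 0.12, 95% interval -0.71 to -0.17, limma adjusted p = 0.0286), and the exact two-sided permutation test gave p = 0.0286, the smallest it can give for 4 against 3. All tested genes together had a median log2 change of -0.21. Median-ratio scaling brought that median to -0.00 and Ldb3 to -0.20, which was no longer called (adjusted p = 0.222). The call was also lost without any 1 ND library, with adjusted p of 0.0720 to 0.0968.

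The other 26 genes did not pass between HFD and ND, and 25 of the 27 had log2 changes below 0. Their median was -0.48 against -0.21 over all tested genes, and without HFD 1 it was -0.20 against -0.13. By role the medians were -0.54 for the 13 contractile genes, -0.48 for 11 cytoskeletal genes and -0.30 for Cav1, Hspb6 and Hspb8. Acta2 changed by -0.60 on the log2 scale, with a 95% interval of -1.91 to 0.71, and Myh11 by -0.47, with an interval of -2.02 to 1.09. Csrp1, a LIM protein that binds alpha-actinin (chromosome 1, 135720061 to 135752232, plus strand), was the other gene whose HFD and ND libraries did not overlap. It had 61.8, 10.2, 31.6 and 46.3 FPKM in FSP, 8.996, 35.1, 27.7 and 26.7 FPKM in HFD, and 62.6, 59.9 and 46.1 FPKM in ND libraries. HFD differed from ND by a log2 change of -1.29 (SE 0.54, limma adjusted p = 0.108, exact permutation p = 0.0571). Csrp1 passed under 5 of 26 alternatives, with limma adjusted p up to 0.254 over them. Among the 5 were fits without FSP 2 (adjusted p = 0.0361), without FSP 2 and HFD 1 together (adjusted p = 0.0247) and of the 2 groups alone (adjusted p = 0.0498). Of the 11 fits without 1 library, only that without FSP 2 passed.

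**Figure D3:**
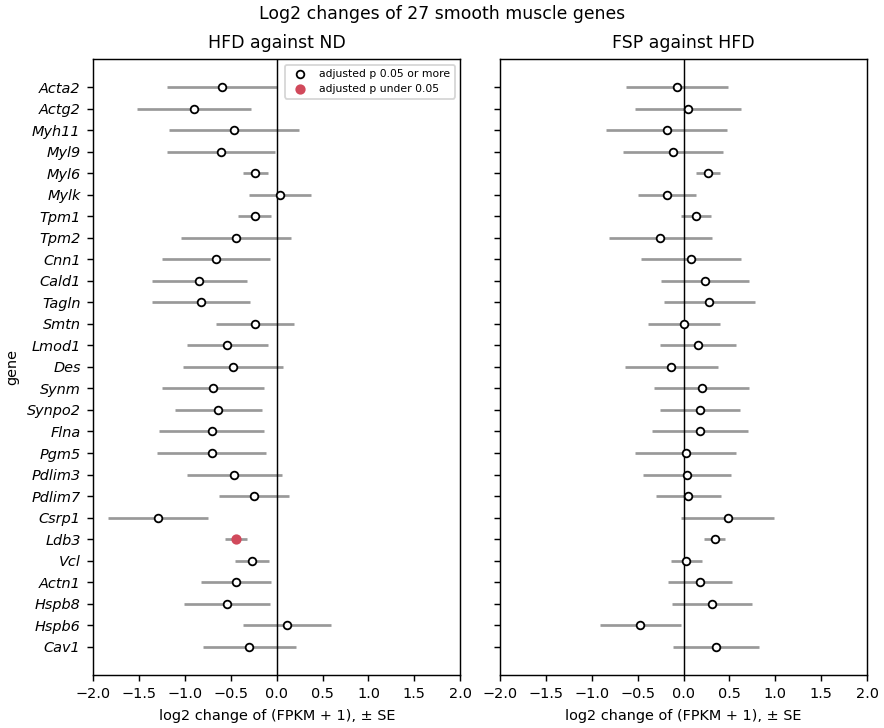
Log2 change of each of the 27 tested genes, with its standard error (bars), for HFD against ND and FSP against HFD. Ldb3 at -0.44 in HFD against ND is the only filled point, 25 of 27 points lie below 0 in HFD against ND, and 20 of 27 lie above 0 in FSP against HFD.

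Between FSP and HFD libraries, none of the 27 genes passed, where 3.74% of all tested genes were called by limma, and 1 gene, Ldb3, had an unadjusted p under 0.05. All 4 FSP libraries of Ldb3 lay above all 4 HFD libraries, with a log2 change of 0.34 (SE 0.11, 95% interval 0.09 to 0.59, limma adjusted p = 0.135) and an exact permutation p = 0.0286, the smallest for 4 against 4. The log2 changes of the 27 genes had a median of 0.08 against 0.12 over all genes, and 20 were above 0. That median was 0.48 without FSP 2 and -0.22 without HFD 1, and quantile normalization put it at -0.02 and median-ratio scaling at -0.06. Acta2 changed by -0.07 with a 95% interval of -1.28 to 1.15, and Myh11 by -0.18 with an interval of -1.62 to 1.26.

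Between FSP and ND libraries, none of the 27 genes passed and none had an unadjusted p under 0.05, where limma called 1.03% of all tested genes. The median log2 change in FSP against ND was -0.46 against -0.07 over all genes, and 25 of the 27 lay below 0, but without FSP 2 the median was -0.01. Actg2 changed by -0.85 (95% interval -2.22 to 0.52). The comparisons share groups, HFD or ND libraries serving in more than a single contrast, so they are not independent of each other.

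Csrp1 and Hspb6 stood apart in HFD libraries when set against Acta2 in the same library. Both were singled out after their values were seen, and ratios within a library do not depend on how libraries are scaled. Of the 26 other tested genes, 6 had ratios to Acta2 that did not overlap between HFD and ND libraries (Actg2, Mylk, Tagln, Smtn, Csrp1 and Hspb6), against 11.4% of all tested genes. Only Csrp1 and Hspb6 had HFD libraries all on 1 side of every FSP and ND library, against 0.573% of all tested genes. With Myh11 as the denominator, 6 of 26 did not overlap between HFD and ND (Cald1, Synm, Synpo2, Pgm5, Csrp1 and Hspb6), against 5.08%, and Synpo2 and Csrp1 lay apart from both groups, against 0.466%. These shares are not like for like. Most of the smooth muscle genes followed Acta2 and Myh11, while a gene that does not takes their wide range into its ratio. The FPKM ratio of Csrp1 to Acta2 was 0.407, 0.490, 0.428 and 0.400 in FSP, 0.275, 0.267, 0.283 and 0.340 in HFD, and 0.474, 0.478 and 0.493 in ND libraries. All 4 HFD libraries lay below all FSP and ND libraries, including FSP 2 and HFD 1, where both genes were low. With Myh11 in place of Acta2 the ratio of Csrp1 ran from 0.930 to 1.58 in FSP, 0.534 to 0.821 in HFD and 1.04 to 1.51 in ND libraries, again without overlap of HFD with either. The ratio of Synpo2 to Myh11 ran from 0.0909 to 0.128 in FSP, 0.0719 to 0.0837 in HFD and 0.0928 to 0.112 in ND libraries, but to Acta2 its HFD and ND libraries overlapped.

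Hspb6, the small heat shock protein HSP20, which is phosphorylated when smooth muscle relaxes (chromosome 7, 30552178 to 30555443, plus strand), went the other way. Its level was 8.43, 0.986, 3.51 and 6.30 FPKM in FSP, 2.79, 9.64, 7.57 and 5.58 FPKM in HFD, and 6.66, 5.75 and 4.02 FPKM in ND libraries, and the groups overlapped. Its ratio to Acta2 was 0.0555, 0.0475, 0.0476 and 0.0544 in FSP, 0.0850, 0.0734, 0.0775 and 0.0711 in HFD, and 0.0504, 0.0459 and 0.0430 in ND libraries, with every HFD library above every FSP and ND library. Set against Myh11, HFD stayed above ND (0.147 to 0.254 against 0.110 to 0.132) but overlapped FSP (0.117 to 0.154). Mylk relative to Acta2 spanned 0.384 to 1.00 in FSP, 0.472 to 0.812 in HFD and 0.354 to 0.389 in ND libraries, and was highest in FSP 2 and HFD 1, so this ratio followed the low libraries too.

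**Figure D4:**
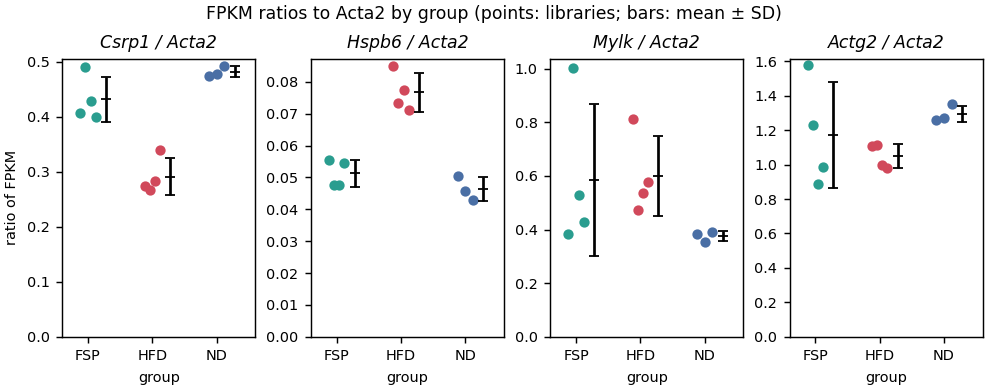
FPKM ratios to Acta2 of Csrp1, Hspb6 and other genes by library, grouped as FSP, HFD and ND. For Csrp1 the HFD libraries (0.267 to 0.340) lie below the others, and for Hspb6 they (0.0711 to 0.0850) lie above.

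The same was seen when the mean log2(FPKM + 1) of the other tested genes entered the fit as a covariate, an alternative added after the data were seen. In HFD against ND it called 5 of the 27 genes, where 19.6% of all genes were called. Relative to the other genes, Csrp1 was lower in HFD, with a log2 change of -0.72 (SE 0.12, adjusted p = 0.00356) and Hspb6 higher by 0.68 (SE 0.09, adjusted p = 0.00204). Mylk was higher by 0.42 (SE 0.08, adjusted p = 0.00888), Myh11 by 0.36 (adjusted p = 0.0422), and Ldb3 was lower, at -0.38 (adjusted p = 0.0341). In FSP against HFD, where that fit called 6.45% of all genes, Hspb6 was lower in FSP, at -0.58 (SE 0.08, adjusted p = 0.00770) and Csrp1 higher by 0.40 (SE 0.10, adjusted p = 0.0461). In FSP against ND it called none of the 27, and 1.2% of all genes. When each of the 11 libraries was left out in turn, all 11 fits of HFD against ND called Csrp1, Hspb6 and Mylk, whereas 4 called Ldb3 and 2 called Myh11. In FSP against HFD, 10 fits called Hspb6, which failed without FSP 2 (adjusted p = 0.0509), and 2 called Csrp1. The covariate was built from the same libraries and genes, so its p-values describe these data and are no independent check.

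Of 15 tested genes of SRF and myocardin regulation, 3 fell and 1 rose in HFD against ND, where 20.5% of all tested genes were called, so the count of 4 was near that share. In FSP against HFD 2 rose and 1 fell, where 3.74% of all tested genes were called. Srf, the factor itself, had 7.31, 6.19, 5.38 and 7.33 FPKM in FSP, 3.41, 4.62, 4.22 and 4.10 FPKM in HFD, and 9.21, 9.70 and 6.98 FPKM in ND libraries. The HFD libraries lay below all others. The log2 change was -0.92 in HFD against ND (SE 0.15, limma adjusted p = 0.00221), which was past the threshold under all 26 alternatives, and 0.57 in FSP against HFD (SE 0.14, adjusted p = 0.0441), which was past it under 9 of 26. Klf4, a repressor of smooth muscle genes that the gut epithelium also makes, moved the same way, by -0.66 (adjusted p = 0.0129) and 0.65 (adjusted p = 0.0335). Gata6, a transcription factor shared with the epithelium, was higher in HFD than in ND by 0.83 (adjusted p = 0.00165) and lower in FSP than in HFD, at -0.55 (adjusted p = 0.0291). The HFD against ND call of Klf4 was past the threshold under 22 of the 26 alternatives and that of Gata6 under all 26. The FSP against HFD calls of Klf4 and Gata6 were past the threshold under 11 and 14 of the 26 alternatives.

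Of 20 tested genes of smooth muscle signalling, 4 fell and none rose in HFD against ND, Ppp1cb, Pde5a and Atp2a2 among them, a share near the 20.5% of all tested genes that were called. In FSP against HFD 1 rose and none fell, against 3.74%. Ppp1cb, a catalytic subunit of the myosin phosphatase that reverses light-chain phosphorylation, had 52.9, 48.4, 68.2 and 79.2 FPKM in FSP, 32.0, 59.9, 62.9 and 43.2 FPKM in HFD, and 137, 103 and 103 FPKM in ND libraries. The ND libraries were the highest and did not overlap HFD or FSP. It fell in HFD against ND, with a log2 change of -1.23 (SE 0.24, limma adjusted p = 0.00588). Pde5a, which degrades cyclic GMP, had 19.7, 15.3, 16.2 and 22.3 FPKM in FSP, 7.68, 16.4, 13.2 and 11.1 FPKM in HFD, and 24.0, 20.7 and 17.8 FPKM in ND libraries. It changed by -0.77 in HFD against ND (SE 0.22, adjusted p = 0.0296), a call past the threshold under 22 of 26 alternatives, and Atp2a2, the calcium pump of the reticulum, by -0.92 (adjusted p = 0.0422), past it under 19. Many of these regulators are also made by other cells of the gut. FSP 2, low for the structural genes, had 6.19 FPKM of Srf, above the 5.38 FPKM of FSP 3, while HFD 1 had the lowest Srf and Pde5a of the 11 libraries.

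Some markers of other cell types and of stretches of gut were called too. Over all tested genes, limma called 20.5% in HFD against ND (15.1% lower in HFD) and 3.74% in FSP against HFD. Of 15 epithelial markers, none rose and 7 fell in HFD against ND, and 4 rose in FSP against HFD. Of 11 tested markers of the distal small intestine, 10 fell in HFD against ND and 7 rose in FSP against HFD, and of 9 of the proximal small intestine, HFD had 7 higher and 2 lower than ND. The distal markers summed to 1486 to 5348 FPKM in FSP, 831 to 1191 FPKM in HFD and 2953 to 13546 FPKM in ND libraries. None of the 6 tested pericyte, 13 fibroblast, 11 enteric neuron or 8 endothelial markers passed in HFD against ND, nor did any of 2 glial or 8 leukocyte markers. Of 4 tested markers of interstitial cells of Cajal, Cd9 and Edn3 fell, of 4 of mesothelium Upk1b fell, and of 8 of adipocytes Cidec and Pck1 rose. The part of the stretch of gut or of the epithelium in the changes of Ldb3, Csrp1, Hspb6 and Srf was not tested.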

How the data were processed

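TRIzol extraction of total RNA and a VAHTS Universal V6 library kit are stated per the labels' protocols. The build mm10 and the tools HISAT2, HTSeq, fastp and R 3.2.0 come from the submitters' processing notes. Not given in the sources used here were the annotation, whether strand was used and what computed FPKM. The authors deposited expression as FPKM per library, in a table of all 11 libraries and in a table for each. Values were identical for the genes shared by both. Each FSP library had the same 24250 genes as the joint set. Each HFD and ND library had 24294, of which 23609 were shared, and the genes not shared stood at 0. Log2(FPKM + 1) values entered limma 3.58.1 (R 4.3.3), in 1 fit over the 3 groups with an intensity trend, over genes with a mean of at least 1 FPKM. Two-sided p-values were Benjamini-Hochberg adjusted in each comparison over all 10296 genes, and the procedure was tested on simulated data. Group differences of single genes were also tested by exact permutation. The 30 genes and all other lists were chosen with earlier results of these data known. The genes named are all 30, up to 3 genes of each other list with the smallest p in a comparison, and the 10 other genes most like their mean. Single-gene alternatives covered pseudocount, filter, scaling, fit and each library left out. Gene positions are from GENCODE M21 (GRCm38). Some single genes of the signalling and wider muscle lists are not reported here.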

Additional observations from a re-analysis of the deposited data

How the results depend on the processing

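The 1 gene called in HFD against ND became 0 with median-ratio scaling, 2 with a fit on the 2 groups alone and 2 without HFD 1 and FSP 2 together. It became 5 with the covariate and 6 with the covariate and both low libraries left out. Leaving out each library in turn gave 0 to 2, with 0 without any 1 ND library and 2 without FSP 2. The count of 0 in FSP against HFD became 2 with the covariate and 3 with both changes. Myh11 in HFD against ND, at -0.47 without the covariate, was 0.36 with it and 0.32 with the covariate and without both low libraries. Smtn, at -0.23, was 0.23 in the last of these. With the covariate a change is relative to the level of the other tested genes. These values and the plain changes therefore do not measure the same thing, and a change of sign between them is no reversal of a result. Over all genes, the 2109 calls of HFD against ND became 3369 with the covariate and without both low libraries, and 849 to 2678 without each library in turn. The 385 calls of FSP against HFD became 117 with no filter on low values, 245 with median-ratio scaling, 76 with the 2-group fit, 182 without both low libraries, 664 with the covariate, 784 with both changes and 48 to 458 without each library. The 106 calls of FSP against ND became 58 with no filter, 196 with quantile normalization, 184 without both low libraries, 627 with both changes and 13 to 201 without each library. Higher and lower calls of all genes in HFD against ND numbered 552 and 1557, against 899 and 799 with median-ratio scaling and 1124 and 1182 with quantile normalization. Same-numbered libraries did not deviate together in every pair, with correlations from -0.10 to 0.45. Those of other pairs ran from -0.62 (FSP 4 and HFD 1) to 0.65 (FSP 3 and HFD 4). Whether the numbers mark pairs cannot be told from these values. A replicate block left 1, 0 and 0 of the 27 genes called in HFD against ND, FSP against HFD and FSP against ND, and 2357, 337 and 77 of all genes. Every median log2 change of the 27 genes moved by less than 1 SD between libraries, which was 0.696. That SD was larger in size than each of the medians as first fitted, so it cannot show that they were steady. In FSP against HFD the median went from 0.08 to 0.48 without FSP 2. Depth limits Myocd, Flnc and Kcnmb1, which stood under 1 FPKM. With a filter at 0.1 FPKM they changed by -0.09, -0.32 and -0.25 in HFD against ND, and none was called.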

Other observations

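Outside the 30 genes, those whose log2(FPKM + 1) was most like the mean of the tested 27 over the 11 libraries, by Pearson r as a description, were Nkd2 (0.997), Tspan2 (0.982), Adcy5 (0.982), Ckm (0.981), Atp2b4 (0.980), Nap1l5 (0.980), Nrbp2 (0.980), Kit (0.979), Fxyd6 (0.979) and Rbpms2 (0.978). The libraries are shared by every pair of genes, and each of these averaged 1.23 (Kit) to 5.09 FPKM (Ckm). Nkd2 stood at 0.480 FPKM in FSP 2 and 0.579 FPKM in HFD 1, against 3.75 FPKM in FSP 1. Kit, which marks interstitial cells of Cajal, the pacemaker cells of the gut wall, stood at 0.477 FPKM in FSP 2 and 0.533 FPKM in HFD 1, against 1.82 FPKM in FSP 1. The 8 markers of these cells as a list did not have FSP 2 low by summed FPKM, at 54.1 FPKM, against 37.6 FPKM in FSP 3. That sum rests mainly on the more abundant markers, since 4 of the 8 averaged under 1 FPKM.

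Leukocyte markers varied widely within the FSP and HFD groups. The 10 markers summed to 329, 193, 9.28 and 36.5 FPKM in FSP 1 to 4, to 336, 208, 85.9 and 18.2 FPKM in HFD 1 to 4, and to 24.9, 20.9 and 13.6 FPKM in ND 1 to 3. FSP 1, which held the highest value of 19 of the 30 smooth muscle genes, and HFD 1 and FSP 2, the lowest for nearly all of them, were all high. The 12 markers of B and plasma cells summed to 677, 818, 87.1 and 348 FPKM in FSP 1 to 4, to 321, 319.7, 203 and 126 FPKM in HFD 1 to 4, and to 38.8, 42.6 and 64.7 FPKM in ND 1 to 3, with FSP 2 highest.

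Of 34 tested genes of a wider smooth muscle list, 1 rose and 2 fell in HFD against ND by limma, Ckb and Tinagl1 among them, where 20.5% of all tested genes were called. Ckb, brain-type creatine kinase, had 128, 106, 163 and 94.1 FPKM in FSP, 179, 179.5, 261 and 317 FPKM in HFD, and 48.3, 62.5 and 77.3 FPKM in ND libraries. Every HFD library lay above every FSP and ND library, and HFD differed from ND by a log2 change of 1.86 (limma adjusted p = 0.000975). The libraries low for most structural genes did not stand out for Ckb. HFD 1 (179 FPKM) was level with HFD 2 (179.5 FPKM), and FSP 2 (106 FPKM) was not the lowest FSP library. Which cells the Ckb RNA came from was not tested. Tinagl1, a matrix protein, had 11.04, 10.2, 7.68 and 10.4 FPKM in FSP, 4.92, 7.65, 7.46 and 7.87 FPKM in HFD, and 12.1, 13.6 and 13.2 FPKM in ND libraries, so HFD lay below ND and overlapped FSP, with a log2 change in HFD against ND of -0.82 (adjusted p = 0.00609).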
